A study of Oryctolagus cuniculus with 24 samples.

Results

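Genes of tissue factor and of fibrinolysis were followed in rabbit peripheral blood mononuclear cells (PBMCs), the lymphocytes and monocytes of the blood. The 6 genes, F3, TFPI, PLAU, PLAUR, SERPINB2 and THBS1, were chosen by name, with earlier results of these data known. Their counts beside the shares of all genes are therefore a description. Of the 6, 5 were matched to a probe by gene symbol. The array measured 28870 entries, called genes here, of which 9506 had a symbol and the others only an identifier. PLAUR, the urokinase receptor, was not matched and was not analysed here. The PBMCs came from 4 New Zealand White rabbits, adult females here called rabbits 1, 2, 4 and 5 by their numbers, and were separated from blood on a density gradient. They were given buffer only (mock-stimulated), 1 µg/mL of LPS, or a mix of 10 ng/mL of PMA and 1 µg/mL of ionomycin (PMA-Ionomycin), and were harvested after 4 h (T4) or 24 h (T24). LPS is the lipopolysaccharide of bacterial outer membranes, PMA a phorbol ester acting on protein kinase C, and ionomycin a calcium ionophore. Each of the 6 groups held 1 culture of each rabbit in the same serum-containing medium, and each of the 24 cultures was measured on a one-colour Agilent array of its own. PBMCs are a mixture, so that in their bulk RNA fewer cells of a type and less RNA per cell cannot be told apart.

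The level of a gene is the log2 median signal of its probes minus the median of the array, averaged over its probes, so that 0 stands for the median spot of the array. Changes are log2 fold changes (log2 FC) with their standard error (SE) from limma, called when the p-value adjusted over all 28870 genes was under 0.05. On each array 51.4 to 62.3% of the non-control spots were well above background. Each of the 15 probes of the 5 genes passed that mark on the 4 arrays of at least 1 group. Of the 55 markers of blood and vessel cells listed, 35 were found. Of those found, 3 of 6 monocyte markers (CD14 among them), 4 of 5 B cell markers and 3 of 5 T cell markers were well above background on all 24 arrays, and each of the other markers of these 3 cell types on some. None of the 3 endothelial markers was so on all arrays: KDR and TEK were on none, and ROBO4 on 9 of 24.

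F3 encodes tissue factor, the membrane receptor of factor VII that starts blood coagulation, and blood monocytes are known to make it when they meet bacterial products. TFPI encodes the inhibitor of the tissue factor and factor VIIa complex. PLAU encodes urokinase, the protease that turns plasminogen into plasmin, which dissolves fibrin, and SERPINB2 encodes plasminogen activator inhibitor type 2, a serpin of activated monocytes that blocks urokinase. THBS1 encodes thrombospondin 1, an adhesive glycoprotein of platelet granules that monocytes and other cells also make.

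The values rest on 60-mer probes, and those that bear on the reading of the levels are printed from the array files, 5′ to 3′. F3 has 2 probes on chromosome 13 of the oryCun2 assembly, on the plus strand. The upstream one starts at base 531 of the transcript, at chr13:70011242-70011304, and the other at base 1464, at chr13:70013882-70013941. The span of the upstream probe is 63 bases for a sequence of 60 bases.
A_04_P085232: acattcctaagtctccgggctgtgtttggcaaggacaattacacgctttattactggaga
SERPINB2 has 2 neighbouring probes on the plus strand, at chr9:104107284-104107343 and chr9:104107353-104107412, and both sequences are shown because their readings set the gene's level together.
A_04_P030018: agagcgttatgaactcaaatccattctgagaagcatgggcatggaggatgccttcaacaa
A_04_P030017: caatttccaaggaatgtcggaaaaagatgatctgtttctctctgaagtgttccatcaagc
The 4 probes of TFPI, on the minus strand, overlap between chr7:127831038 and 127831139, and 2 of them, A_04_P002007 and A_04_P101922, hold 1 sequence, so that it entered the average of the gene as 2 probes. Capitals mark the 18 bases that all share.
A_04_P002008: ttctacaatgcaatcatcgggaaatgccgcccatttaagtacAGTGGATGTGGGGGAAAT
A_04_P002007: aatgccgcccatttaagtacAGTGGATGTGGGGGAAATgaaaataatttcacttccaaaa
A_04_P002006: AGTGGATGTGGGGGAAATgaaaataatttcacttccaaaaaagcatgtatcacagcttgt
THBS1 has 4 probes on the minus strand of chromosome 17, printed because they differ in what they show. The upstream one starts at base 1399 of the transcript, at chr17:32576345-32576404. The 3 downstream ones lie between chr17:32570380 and 32570663 and start at or after base 3363. Capitals mark the 20 bases that A_04_P090833 and A_04_P090832 share, and A_04_P090834 spans 164 bases of the genome for its 60 bases.
A_04_P028791: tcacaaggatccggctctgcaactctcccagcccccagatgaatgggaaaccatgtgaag
A_04_P090834: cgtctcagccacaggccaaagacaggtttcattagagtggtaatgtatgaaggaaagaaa
A_04_P090833: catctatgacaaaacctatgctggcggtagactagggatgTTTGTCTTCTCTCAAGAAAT
A_04_P090832: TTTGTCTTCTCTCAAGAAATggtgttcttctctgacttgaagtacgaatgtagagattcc
PLAU has 3 probes on the minus strand of chromosome 18, A_04_P004636 at chr18:13597857-13597916, and A_04_P002272 and A_04_P002271 between chr18:13595277 and 13595402.

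Each stimulation was set against mock-stimulated PBMCs harvested at the same time, to see how each affected these genes and when. After LPS, none of the 5 genes was called at T4 (2 of 5 at an unadjusted p under 0.05), where 1.03% of all genes were called. At T24, 2 of the 5 genes were called, F3 and SERPINB2, both higher, against 1.22% of all genes called and 0.637% called as higher. All 5 then had an unadjusted p under 0.05. Under PMA-Ionomycin, calls at T4 numbered 4 of the 5 genes (22.8% of all genes), of which F3, TFPI and PLAU were higher (13.5% of all genes) and SERPINB2 lower (9.35%). At T24 all 5 were called (33.6%), again F3, TFPI and PLAU higher (22.1%), and SERPINB2 and THBS1 lower (11.5%). The shares of all genes include dim genes, whereas each of the 15 probes of the 5 genes passed the background mark in some group. With dim probes left out, 17493 genes remained. Of these, 39.0% were called at T4 and 55.5% at T24 under PMA-Ionomycin, and 2.48% and 2.57% after LPS. The comparisons at 1 time share their mock-stimulated samples. The split of all genes between higher and lower depends on the scaling of the arrays: with the processed signal, 3296 genes were higher and 3707 lower at T4 after PMA-Ionomycin, and 4680 and 5421 at T24. In a paired fit, with a term for each rabbit, 1 gene was called after LPS at T4 (4.26% of all genes) and 4 at T24 (2.59%). Over the 5 genes the median log2 FC was 0.11 at T4 and 1.95 at T24 after LPS, and 2.67 and 1.65 after PMA-Ionomycin, against 0.06, -0.03, 0.05 and 0.03 over all genes.

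**Figure D1:**
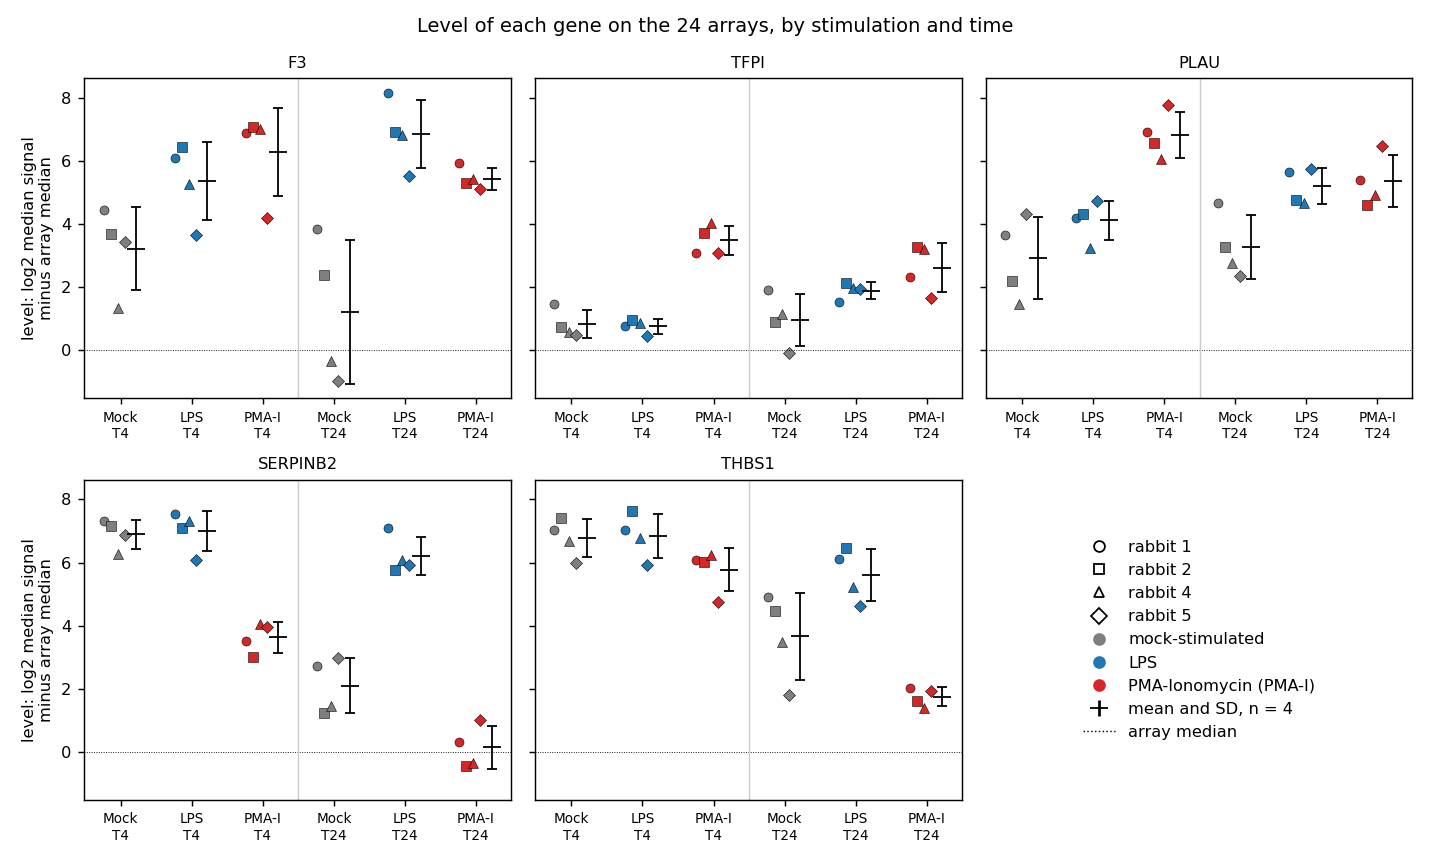
Level of each of the 5 genes (log2 median signal minus the array median) in the 6 groups; each symbol is the culture of 1 rabbit, the black bar and whiskers the mean and SD (n = 4). F3 lay highest after LPS at T24 with a mean of 6.84, and SERPINB2 and THBS1 lay lowest after PMA-Ionomycin at T24 with means of 0.13 and 1.74.

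F3, which starts coagulation, was higher after LPS at T24 and after PMA-Ionomycin at both times. Its levels in rabbits 1, 2, 4 and 5 were 4.43, 3.67, 1.33 and 3.43 in mock-stimulated PBMCs at T4, and 3.83, 2.39, -0.36 and -1.0 at T24. At T24 the mock-stimulated cultures of rabbits 4 and 5 lay below the array median and were not well above background, whereas those of rabbits 1 and 2 were. After LPS the levels were 6.08, 6.42, 5.27 and 3.64 at T4 and 8.15, 6.90, 6.81 and 5.51 at T24. After PMA-Ionomycin they were 6.90, 7.07, 7.0 and 4.19 at T4, and 5.92, 5.29, 5.41 and 5.10 at T24. All 4 LPS cultures and all 4 PMA-Ionomycin cultures of T24 lay above every mock-stimulated culture of that time, while at T4 the groups overlapped through rabbit 5, the lowest of each stimulated group.

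For LPS at T24 the log2 FC of F3 was 5.63 (SE 0.89, adjusted p = 0.000846), with differences of 4.32 to 7.17 within the rabbits. With the processed signal it was 6.87. Of the mock arrays, 2 were not well above background. At T4 it was 2.14 (SE 0.89, adjusted p = 0.259), higher in 4 of 4 rabbits, and of the fits tried only the paired one called it (adjusted p = 0.0473). For PMA-Ionomycin the log2 FC was 3.07 at T4 (adjusted p = 0.0126) and 4.22 at T24 (adjusted p = 0.000517; 5.12 with the processed signal), in 4 of 4 rabbits each. The call of T4 was lost with the processed signal (3.20, adjusted p = 0.0562) and without single rabbits: without rabbit 2 the log2 FC was 2.97 (adjusted p = 0.0842) and without rabbit 4 it was 2.21 (adjusted p = 0.2), while without rabbit 5 it was 3.85. The log2 FC of T24 was 4.93 without rabbit 1 and 3.59 without rabbit 5, called in both cases. Without rabbit 4 the log2 FC for LPS at T24 was 5.12 (adjusted p = 0.0527), and with only the arrays of that comparison its adjusted p was 0.0748. Both probes of F3 rose at T24 after LPS, by 6.21 (SE 1.06) and 5.05 (SE 0.76) on the log2 scale for the probes at bases 1464 and 531. After PMA-Ionomycin at T24 the same probes differed more in size, with 5.33 (SE 1.06) and 3.11 (SE 0.76).

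TFPI, the inhibitor of tissue factor, was higher after PMA-Ionomycin at both times, and was not called after LPS. Its levels in rabbits 1, 2, 4 and 5 were 1.46, 0.72, 0.58 and 0.47 in mock-stimulated PBMCs and 3.08, 3.70, 4.03 and 3.09 after PMA-Ionomycin at T4, so that the groups did not overlap. At T24 they were 1.91, 0.87, 1.14 and -0.09 in mock-stimulated PBMCs, and 2.33, 3.26, 3.20 and 1.66 after PMA-Ionomycin. The groups overlapped at T24, where the mock-stimulated culture of rabbit 1 lay above the stimulated one of rabbit 5. The log2 FC was 2.67 (SE 0.36, adjusted p = 4.07e-06) at T4 and 1.65 (SE 0.36, adjusted p = 0.000634) at T24, higher in 4 of 4 rabbits at both times. After LPS the levels were 0.43 to 0.96 at T4 and 1.5 to 2.12 at T24. The log2 FC was -0.05 (SE 0.36, adjusted p = 0.955) at T4 and 0.92 (SE 0.36, adjusted p = 0.285) at T24, where rabbit 1 was lower and the other rabbits higher. The 4 TFPI probes gave log2 FC of 2.42 to 2.78 after PMA-Ionomycin at T4.

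PLAU, the urokinase gene, was higher after PMA-Ionomycin at both times. In mock-stimulated PBMCs at T4 its levels in rabbits 1, 2, 4 and 5 were 3.65, 2.20, 1.47 and 4.32, and after PMA-Ionomycin 6.91, 6.56, 6.04 and 7.76. The lowest stimulated culture lay above the highest mock-stimulated one, and the log2 FC was 3.91 (SE 0.56, adjusted p = 1.12e-05). At T24 the levels were 4.67, 3.26, 2.76 and 2.35 in mock-stimulated PBMCs and 5.39, 4.60, 4.93 and 6.48 after PMA-Ionomycin. The log2 FC at T24 was 2.09 (SE 0.56, adjusted p = 0.00478), and the groups overlapped, since the mock-stimulated culture of rabbit 1 lay above the PMA-Ionomycin culture of rabbit 2. Its size differed between the rabbits, from 0.72 in rabbit 1 to 4.13 in rabbit 5, and without rabbit 5 the log2 FC was 1.41 (adjusted p = 0.0419).

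After LPS, the levels of PLAU were 4.19, 4.30, 3.24 and 4.71 at T4, and 5.65, 4.77, 4.67 and 5.75 at T24. All 4 cultures were higher than the mock-stimulated culture of the same rabbit at both times, and at T24 the groups did not overlap. PLAU was not called at T4 (log2 FC 1.20, SE 0.56, adjusted p = 0.338) or at T24 (log2 FC 1.95, SE 0.56, adjusted p = 0.101), and the paired fit called it at T24 (adjusted p = 0.00747). A_04_P004636, the PLAU probe nearest to the transcript start, gave a log2 FC of 1.85 (SE 0.44) and was called on its own (adjusted p = 0.0304). The other 2 probes gave 1.99 (SE 0.66) and 2.01 (SE 0.65) and were not called.

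**Figure D2:**
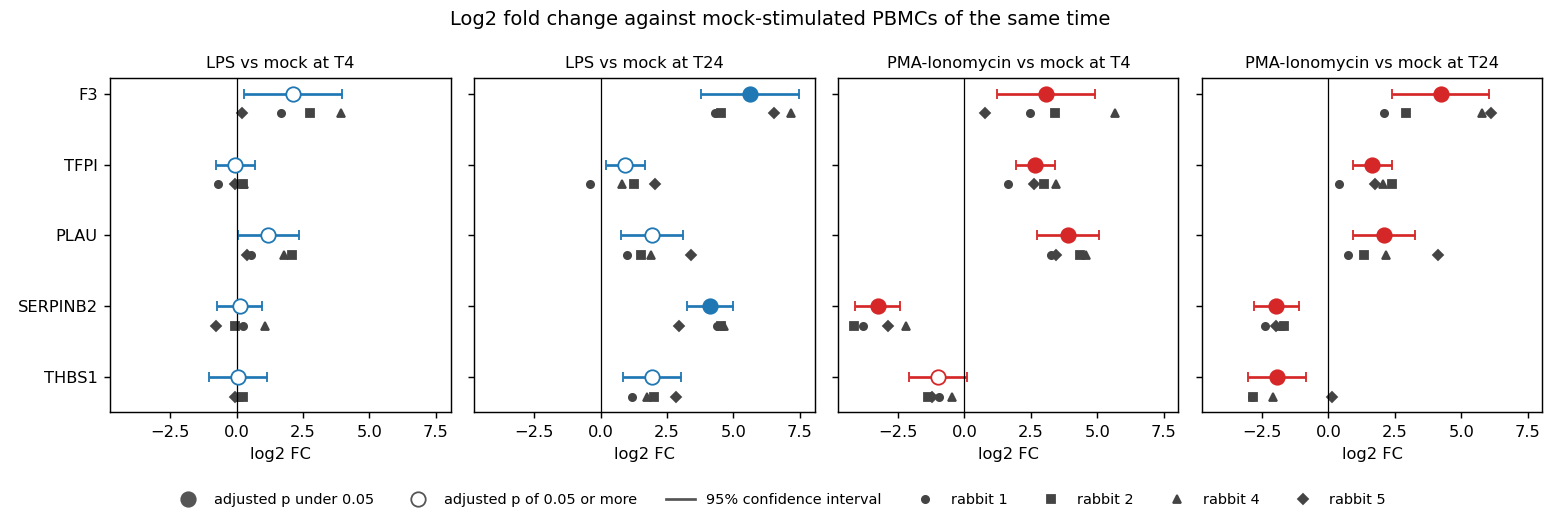
Log2 FC of each gene against mock-stimulated PBMCs of the same time (large circles, with the 95% confidence interval), filled where the adjusted p was under 0.05; the small symbols below give the difference in each rabbit. SERPINB2 had a log2 FC of 4.12 after LPS at T24 and of -3.27 and -1.96 after PMA-Ionomycin at T4 and T24.

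SERPINB2, which blocks urokinase, was called in opposite directions under the 2 stimulations. In mock-stimulated PBMCs at T4 its levels in rabbits 1, 2, 4 and 5 were 7.31, 7.15, 6.26 and 6.86, and after LPS 7.53, 7.08, 7.32 and 6.09. These groups overlapped, and the log2 FC was 0.11 (95% confidence interval -0.74 to 0.96, adjusted p = 0.92). After PMA-Ionomycin the levels at T4 were 3.50, 2.99, 4.06 and 3.96, each below every mock-stimulated culture, with a log2 FC of -3.27 (SE 0.41, adjusted p = 1.96e-06).

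At T24 the levels of SERPINB2 were 2.71, 1.24, 1.45 and 2.98 in mock-stimulated PBMCs, 7.10, 5.76, 6.09 and 5.92 after LPS, and 0.32, -0.45, -0.36 and 1.01 after PMA-Ionomycin. The 3 groups did not overlap. SERPINB2 was 17.4-fold higher after LPS (log2 FC 4.12, SE 0.41, adjusted p = 5.52e-06) and lower after PMA-Ionomycin (log2 FC -1.96, SE 0.41, adjusted p = 0.000488), each in 4 of 4 rabbits. After PMA-Ionomycin at T24 the gene was well above background on 3 of 4 arrays, and the log2 FC was -3.17 with the processed signal, from which the background was subtracted. Both SERPINB2 probes showed the same size of change, with log2 FC of 4.01 and 4.23 after LPS at T24.

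THBS1, the thrombospondin gene, was lower after PMA-Ionomycin at T24 on the average of its probes. Its levels in rabbits 1, 2, 4 and 5 were 7.04, 7.40, 6.69 and 5.98 in mock-stimulated PBMCs at T4 and 4.91, 4.47, 3.47 and 1.78 at T24. After LPS they were 7.04, 7.62, 6.78 and 5.91 at T4, and 6.10, 6.47, 5.23 and 4.61 at T24. After PMA-Ionomycin they were 6.08, 6.01, 6.23 and 4.76 at T4, and 2.03, 1.62, 1.37 and 1.93 at T24. Rabbit 5 had the lowest level of every group but PMA-Ionomycin at T24, where it lay among the others.

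After PMA-Ionomycin at T24 the log2 FC of THBS1 was -1.92 (SE 0.53, adjusted p = 0.00556), lower in 3 of 4 rabbits (-2.63 with the processed signal). This call was lost without rabbit 1 (log2 FC -1.60, adjusted p = 0.0696), without rabbit 2 (-1.61, adjusted p = 0.0604) and without rabbit 4 (-1.86, adjusted p = 0.0547), while without rabbit 5 the log2 FC was -2.61 (adjusted p = 8.09e-06). At T4 the log2 FC was -1.01 (SE 0.53, adjusted p = 0.209), lower in 4 of 4 rabbits, and the paired fit called it (adjusted p = 0.027). After LPS it was 0.06 (adjusted p = 0.968) at T4 and 1.94 (SE 0.53, adjusted p = 0.0734) at T24. At T24 the LPS value was higher in 4 of 4 rabbits, and was called in the paired fit (adjusted p = 0.00146) and without rabbit 5 (log2 FC 1.65, adjusted p = 0.0148).

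The 4 probes of THBS1 did not give 1 answer. Over the 24 arrays the 3 downstream probes had a Pearson r of 0.990 to 0.999 with each other and of 0.588 to 0.607 with the upstream probe A_04_P028791; all were read on the same arrays. After PMA-Ionomycin at T24 the upstream probe read 4.39, 4.67, 5.17 and 6.02 in rabbits 1, 2, 4 and 5, against 4.76, 5.07, 4.65 and 4.21 in mock-stimulated PBMCs, a log2 FC of 0.39 (SE 0.35, adjusted p = 0.49). The downstream probe A_04_P090834 read 2.60, 1.81, 1.39 and 2.42, against 6.88, 6.14, 5.16 and 2.32 in mock-stimulated PBMCs. Its log2 FC was -3.07 (SE 0.67, adjusted p = 0.000718), lower in rabbits 1, 2 and 4 and higher by 0.10 in rabbit 5. The other 2 downstream probes gave -2.37 (SE 0.61, adjusted p = 0.00305) and -2.64 (SE 0.63, adjusted p = 0.00155), lower in 4 of 4 rabbits. The average over all 4 probes therefore understates the fall of the downstream probes at T24, whose mean log2 FC was -2.69 against mock and -5.09 against LPS. For LPS at T24 they gave 2.36 to 2.45, and 2 of the 3 were called (adjusted p = 0.0469 and 0.0462), while the upstream probe gave 0.58 (SE 0.35). At T4 all 4 probes were near each other after PMA-Ionomycin, with -1.08 (SE 0.35) for the upstream probe, which was called on its own (adjusted p = 0.0277), and -0.95 to -1.01 for the others, which were not. Which part of the transcript the difference comes from was not tested.

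**Figure D3:**
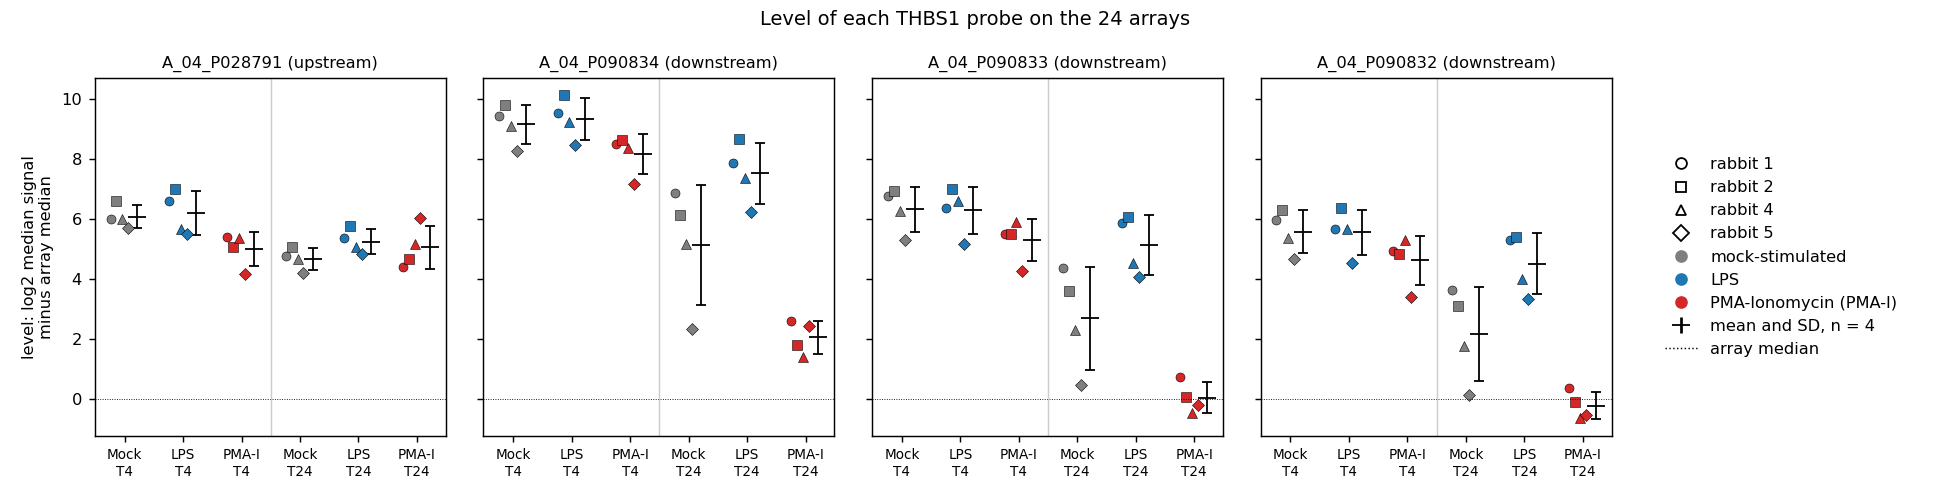
Level of each THBS1 probe (log2 median signal minus the array median) in the 6 groups, by rabbit, with the mean and SD (n = 4). The 3 downstream probes lay lowest after PMA-Ionomycin at T24, with means of 2.05, 0.05 and -0.22, while the upstream probe A_04_P028791 read 4.39 to 6.02 there.

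Mock-stimulated PBMCs changed with the time in culture, which sets the base of each comparison. From T4 to T24, SERPINB2 fell by 4.80 (SE 0.41, adjusted p = 3.06e-08) and THBS1 fell by 3.12 (SE 0.53, adjusted p = 0.000185) on the log2 scale, in 4 of 4 rabbits each and without overlap between the times. The log2 FC of the upstream THBS1 probe was -1.40 (SE 0.35), and those of the 3 downstream probes were -3.42, -3.63 and -4.02. SERPINB2 and THBS1 were 2 of the 5 genes, where 12.5% of all genes were called and 5.13% were lower (with the processed signal, 1697 of all genes were higher and 1774 lower). The share called was 21.8% with dim probes left out. F3 had a log2 FC of -2.0 (SE 0.89, adjusted p = 0.175), lower in 4 of 4 rabbits, with -0.60 in rabbit 1 and -4.43 in rabbit 5 (-3.14 with the processed signal). It was called in the paired fit (adjusted p = 0.0253). PLAU and TFPI had log2 FC of 0.35 (95% confidence interval -0.81 to 1.51) and 0.15 (-0.58 to 0.89). After LPS, SERPINB2 lay at 6.09 to 7.53 at T4 and at 5.76 to 7.10 at T24, so that its log2 FC at T24 was set against a mock level that had fallen.

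Whether the stimulation acted differently at the 2 times was tested by the interaction. For LPS, 1 of the 5 genes was called, SERPINB2, where 1.95% of all genes were called and 1.71% as higher (493 genes higher and 69 lower, and 121 and 55 with the processed signal). Its log2 FC at T24 exceeded that at T4 by 4.01 (SE 0.58, adjusted p = 0.00164), by 3.57 to 4.60 in the 4 rabbits, and without rabbit 2 the difference was 3.82 (adjusted p = 0.0751). For F3 the interaction was 3.49 (SE 1.26, adjusted p = 0.151) and for THBS1 1.88 (SE 0.74, adjusted p = 0.197), each above 0 in 4 of 4 rabbits. For F3 it was 6.30 in rabbit 5 and 1.76 to 3.24 in the others, and without rabbit 5 it was 2.56 (adjusted p = 0.293). In the paired fit, 3 genes were called (5.77% of all genes), with adjusted p of 0.0211 for F3 and 0.0231 for THBS1. For PMA-Ionomycin none of the 5 genes was called (2 at an unadjusted p under 0.05), where 22.5% of all genes were. Leaving out dim probes, the share called was 39.4% for the PMA-Ionomycin interaction and 4.69% for the LPS interaction. In the paired fit of the PMA-Ionomycin interaction, 1 gene was called (26% of all genes), PLAU, with a difference of -1.82 (adjusted p = 0.0192). It was below 0 in rabbits 1, 2 and 4 and above 0 in rabbit 5. Without rabbit 5, PLAU (-2.65, adjusted p = 0.011) and THBS1 (-1.68, adjusted p = 0.0166) were called. The upstream THBS1 probe alone went the other way over all 4 rabbits (1.47, SE 0.50, adjusted p = 0.0347), and the 3 downstream probes gave -1.42 to -2.08.

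The stimulations were also compared with each other. At T4, 3 of the 5 genes were called (26.7% of all genes, and 45.4% with dim probes left out). PLAU and TFPI were higher after PMA-Ionomycin than after LPS (17.7% of all genes), with log2 FC of 2.71 (SE 0.56, adjusted p = 0.000635) and 2.72 (SE 0.36, adjusted p = 2.71e-06). SERPINB2 was lower (9.04% of all genes), by -3.38 (SE 0.41, adjusted p = 1.06e-06). With the processed signal the split of all genes was 3949 higher and 6149 lower. For F3 the log2 FC was 0.94 (95% confidence interval -0.91 to 2.78), higher in 4 of 4 rabbits and not called. For THBS1 it was -1.07 (adjusted p = 0.152), called in the paired fit (adjusted p = 0.0166), without rabbit 5 (-1.04, adjusted p = 0.0328) and with quantile normalization (-1.44, adjusted p = 0.0453). Its upstream probe was called on its own (-1.18, adjusted p = 0.0134), and the 3 downstream probes were not.

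At T24, 2 of the 5 genes were called between the stimulations, THBS1 and SERPINB2, both lower after PMA-Ionomycin (36.1% of all genes called, 12.5% as lower). The share called was 59.5% with dim probes left out. With the processed signal 5131 of all genes were higher and 5574 lower. The log2 FC was -6.09 (SE 0.41, adjusted p = 4.58e-11) for SERPINB2, and -3.87 (SE 0.53, adjusted p = 1.97e-06) for THBS1. With the processed signal these were -7.50 and -4.73, where SERPINB2 was near background after PMA-Ionomycin. On the average of the probes all PMA-Ionomycin cultures lay below all LPS cultures in both genes. The upstream THBS1 probe, however, gave -0.19 (SE 0.35, adjusted p = 0.781), with overlapping groups. The log2 FC of F3 was -1.41 (95% confidence interval -3.25 to 0.43), lower in 4 of 4 rabbits and not called. It was called with only the arrays of this comparison (adjusted p = 0.0211), and of its probes the one at base 531 was called on its own (-1.95, adjusted p = 0.0474). For PLAU it was 0.14 (-1.02 to 1.30) and for TFPI 0.73 (-0.01 to 1.46), neither called. Without rabbit 5, the 1 rabbit with a lower TFPI level after PMA-Ionomycin, the log2 FC of TFPI was 1.07 (adjusted p = 0.0108).

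The order of the groups differed between the genes. F3 was highest after LPS at T24 (6.84 ± 1.08, SD, n = 4) and lowest in mock-stimulated PBMCs at T24 (1.21 ± 2.28), and every pair of neighbours in its order overlapped. PLAU and TFPI were both highest after PMA-Ionomycin at T4 (6.82 ± 0.72 and 3.47 ± 0.47), and their neighbours in order overlapped too. In SERPINB2, LPS at T4, mock at T4 and LPS at T24 (7.01 ± 0.64, 6.89 ± 0.46 and 6.22 ± 0.60) overlapped, and each further step down, to PMA-Ionomycin at T4, mock at T24 and PMA-Ionomycin at T24, left a gap between the rabbits of neighbouring groups. The gap between PMA-Ionomycin at T4 (lowest culture 2.99) and mock at T24 (highest culture 2.98) was very small. In THBS1, the groups from LPS at T4 (6.84 ± 0.71) down to mock at T24 (3.66 ± 1.39) overlapped with their neighbours, and mock at T24 also overlapped with PMA-Ionomycin at T24 (1.74 ± 0.30), through rabbit 5.

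Other genes of the same pathways were taken from lists of 48 genes, of which 34 were found, and are given by their counts. They share the samples of the comparisons above. After LPS, 1 of the 34 genes was called at T4 (1.03% of all genes) and none at T24 (1.22%) by limma (4 and 5 at an unadjusted p under 0.05), and the gene called was ANXA2, which encodes a plasminogen receptor of the cell surface and was lower (log2 FC -1.43, adjusted p = 0.0474, in 3 of 4 rabbits), and this call was lost under all 4 other scalings tried. After PMA-Ionomycin, 4 were higher and 3 lower at T4 (13.5% and 9.35% of all genes), and 2 were higher and 9 lower at T24 (22.1% and 11.5%).

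In the plasminogen system 11 of 12 genes were found. After PMA-Ionomycin, 3 of the 11 were higher and 1 lower at T4 (13.5% and 9.35% of all genes), and 2 were higher and 5 lower at T24 (22.1% and 11.5%), with a median log2 FC of 0.19 and -0.43 (0.05 and 0.03 over all genes). ANXA2 read 7.43, 7.0, 6.32 and 7.26 in rabbits 1, 2, 4 and 5 in mock-stimulated PBMCs at T24 and 5.29, 4.89, 5.39 and 5.65 after PMA-Ionomycin, without overlap. It was higher at T4 (log2 FC 0.97, adjusted p = 0.047) and lower at T24 (-1.70, adjusted p = 0.000381), and S100A10, its partner, was lower at T24 (-0.67, adjusted p = 0.00176). PLGRKT, another plasminogen receptor, was higher at both times (0.49, adjusted p = 0.0414, and 1.21, adjusted p = 4.09e-06). The calls of ANXA2 and PLGRKT at T4 were lost under all 4 other scalings. SERPINE2, protease nexin 1, was higher at T4 (1.20, adjusted p = 0.00238). SERPINF2, the plasmin inhibitor, was 1.61-fold lower at T24 (adjusted p = 9.82e-05), where it was not well above background on any PMA-Ionomycin array. For SERPINF2 the bound given for such genes equals the fitted value. PLAT, the tissue-type plasminogen activator, was the other gene higher at T24 (0.53, SE 0.15, adjusted p = 0.00902), well above background on 4 of 4 PMA-Ionomycin arrays and 1 of 4 mock arrays. CPB2, also lower at T24, was not well above background on any array of either group.

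Of the coagulation factors and cofactors, 12 of 15 were found, none was higher in any of these comparisons, and 2 were lower after PMA-Ionomycin at T4, F2 and F5 (9.35% of all genes), and 1 at T24, F5 (11.5%). F2, the prothrombin gene, was not well above background on any array of those groups. F5, which encodes the cofactor of factor Xa and is also stored in platelets, read 1.09, 0.99, 1.56 and 1.11 in mock-stimulated PBMCs at T24 and -0.98, -0.87, -1.08 and -0.92 after PMA-Ionomycin. It was not well above background on any of the latter arrays, and was at least 4.32-fold lower (adjusted p = 1.86e-07), taking as the floor on each array the lowest signal well above background, or the gene's own signal where that was higher. F5 also fell in mock-stimulated PBMCs from T4 to T24 (log2 FC -0.81, adjusted p = 0.0296), as did F10 (-0.55, adjusted p = 0.0317). F10 was well above background on only 1 of the 4 mock arrays at T24. Of the coagulation inhibitors 6 of 10 were found, and ANXA5, a protein that shields phospholipid surfaces from clotting factors, was the 1 called against mock, higher after PMA-Ionomycin at T4 (1.16, adjusted p = 0.0215).

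Both protease-activated receptors found, of 4 listed, were lower after PMA-Ionomycin at T24, where 11.5% of all genes were. F2R, the thrombin receptor, had a log2 FC of -1.08 (SE 0.21, adjusted p = 0.000248) and F2RL1, which responds to trypsin-like proteases and factor VIIa, of -0.71 (SE 0.20, adjusted p = 0.00755), in 4 of 4 rabbits each. F2R rose in mock-stimulated PBMCs from T4 to T24 (1.35, adjusted p = 8.8e-05). Of the thrombospondin family and its receptors 3 of 7 were found. THBS2 fell in mock-stimulated PBMCs from T4 to T24 (-2.05, SE 0.43, adjusted p = 0.00188), like THBS1. Unlike THBS1, it was then well above background on only 2 of the 4 mock arrays at T24. It had log2 FC of 1.14 (95% confidence interval 0.24 to 2.04, adjusted p = 0.276) after LPS and -0.37 after PMA-Ionomycin at T24, neither called. CD36, a receptor of thrombospondin 1, was at least 1.83-fold lower after PMA-Ionomycin at T24 (adjusted p = 0.0277), where it was not well above background on any array, and was on 3 of the 4 mock arrays.

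**Figure D4:**
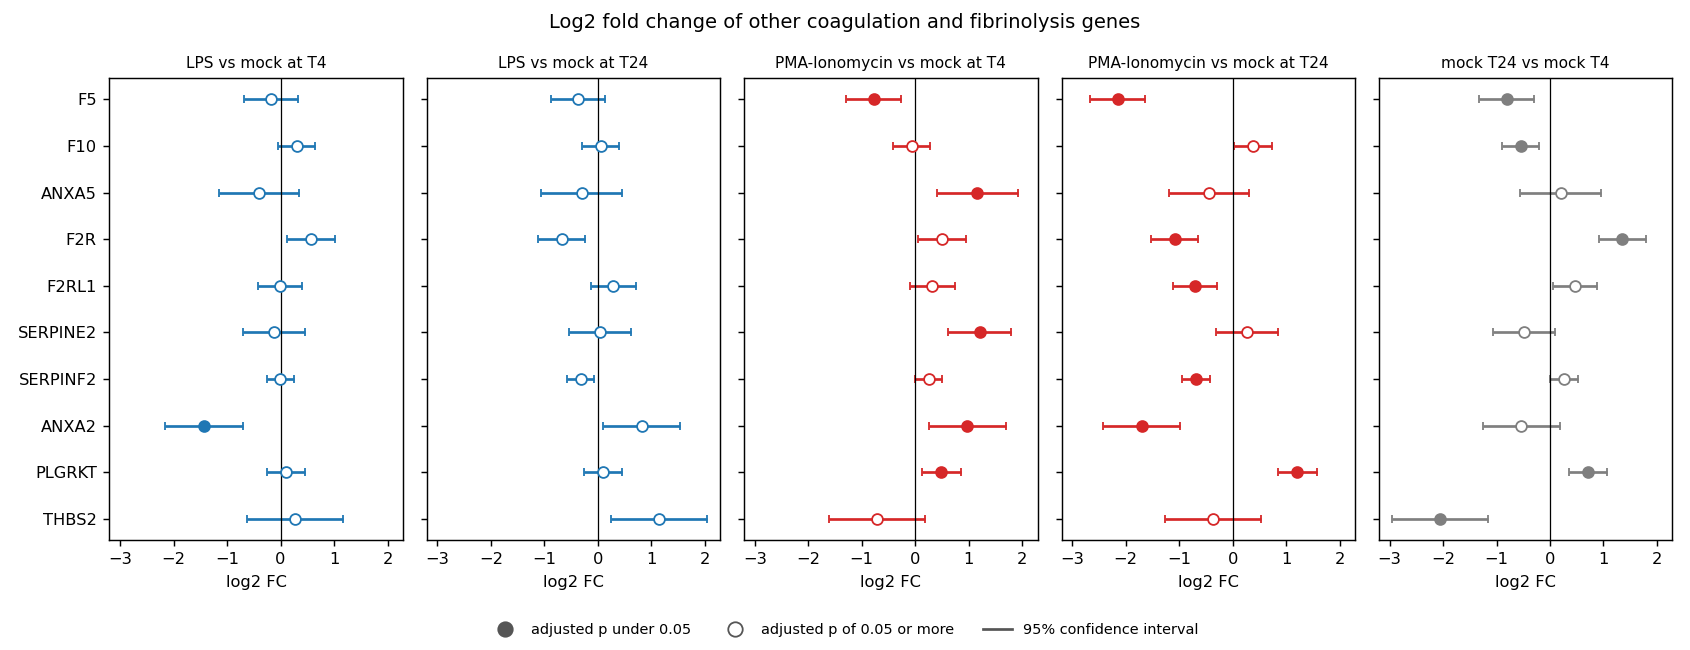
Log2 FC with 95% confidence interval of other coagulation and fibrinolysis genes in the 4 comparisons with mock-stimulated PBMCs and between the 2 times of mock stimulation; filled circles have an adjusted p under 0.05. After PMA-Ionomycin at T24, ANXA2 lay at -1.70 and PLGRKT at 1.21; F5 and SERPINF2 are drawn there at their fitted values, although neither was well above background.

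Markers of blood cells were read in the same comparisons, and not all moved with the 5 genes. After LPS, none of the 5 B cell, 5 T cell and 1 natural killer cell markers found was called. After PMA-Ionomycin, 1 B cell marker was higher and 2 lower at each time. Of the T cell markers, 1 was higher at T4, and 1 was higher and 1 lower at T24. The natural killer cell marker was lower at T4 and higher at T24. Of all genes, 13.5% were higher and 9.35% lower at T4, and 22.1% and 11.5% at T24. Of 8 platelet markers 6 were found, and 5 of the 6 were lower in mock-stimulated PBMCs at T24 than at T4 (5.13% of all genes) and 5 were lower after PMA-Ionomycin than in mock at T4 (9.35%), the comparisons in which THBS1 had log2 FC of -3.12 and -1.01. Their mean level was 1.51 to 2.30 in mock at T4, 0.18 to 0.84 after PMA-Ionomycin at T4 and -0.23 to 0.05 in mock at T24. GP1BA, a defining platelet gene, was not well above background on any array. After PMA-Ionomycin at T24, where THBS1 was lower than in mock, none of the 6 platelet markers was lower (11.5% of all genes) and 2 were higher (22.1%). After LPS no platelet marker was called at T4 or T24 (1 and 0 at an unadjusted p under 0.05). The part of platelet RNA in the values of THBS1 and F5 was not tested.

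Of 10 monocyte markers 6 were found. After LPS at T24, where F3 and SERPINB2 were higher, no monocyte marker was called (0 at an unadjusted p under 0.05), and their mean level was 3.08 to 3.70 in mock and 2.66 to 3.63 after LPS. After PMA-Ionomycin, where SERPINB2 was lower at both times, 2 of the 6 were lower at T4 (9.35% of all genes) and 4 at T24 (11.5%). Their mean level was 1.69 to 2.64 in mock and 1.40 to 1.88 after PMA-Ionomycin at T4, and 1.57 to 1.96 after PMA-Ionomycin at T24. The markers did not move together at T4, where the median log2 FC of the 6 was 0.05: CD14 had a mean of 7.38 in mock and 4.38 after PMA-Ionomycin, CD68 of 4.13 and 4.21, and VCAN of 0.64 and 1.31. From T4 to T24 in mock-stimulated PBMCs 3 of the 6 were higher (2140 of all 28870 genes) and none lower, while SERPINB2 and THBS1 fell. After LPS at T4, 2 of the 6 were called lower (280 of all 28870 genes), but under the 4 other scalings none was. CD14 had a mean of 7.38 in mock and 5.83 after LPS at T4. The study reported CD14 as lower there, on the array and by quantitative PCR. The part of monocyte number in the results after PMA-Ionomycin was not tested. Of 6 neutrophil markers 5 were found. After LPS at T24, 2 of them were lower (1.22% of all genes called), CAMP with means of 2.90 in mock and 0.98 after LPS and MPO with 2.16 and 0.53. The other 3 were not called, LTF with means of 0.046 and 0.44, higher in 4 of 4 rabbits, CXCR2 with 1.68 and 1.40, and MMP8, which was not well above background. After PMA-Ionomycin 1 was lower at T4 (9.35% of all genes) and 3 at T24 (11.5%). In mock-stimulated PBMCs 3 were higher at T24 than at T4, and the part of neutrophils in the results was not tested.

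For each gene, the 3 genes with the most similar levels over the 24 arrays were taken from 6278 genes that had a symbol and exceeded background by the same measure on the 4 arrays of 1 or more groups. The arrays share rabbits and stimulations, so that Pearson r is a description. For F3 they were IL6, an inflammatory cytokine (r = 0.838), STEAP3, a metalloreductase (0.832), and IFRD1 (0.783). For SERPINB2 they were ADORA3, an adenosine receptor (0.878), IL36G, a cytokine of the interleukin 1 family (0.876), and the gene listed as G1U5Q6 (0.867). For THBS1 they were PLA2G4A, cytosolic phospholipase A2 (0.948), IL1A, interleukin 1 alpha (0.947), and PITPNC1 (0.922). The values for TFPI were 0.897 for ERO1A, an oxidoreductase of the endoplasmic reticulum, 0.895 for CD200R1, an inhibitory receptor, and 0.893 for TNFRSF12A. PLAU had its 3 nearest genes, RCN2, SLC35G1 and AGPAT4, at 0.813 to 0.815. Among the 5 genes themselves, r was 0.863 between SERPINB2 and THBS1 and 0.724 between PLAU and TFPI, and -0.46 between SERPINB2 and TFPI.

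The arrays lay on 3 slides with arrays of all 6 groups on each. Within the slides, which mostly set arrays of different rabbits against each other, 17 of the 18 called differences between groups kept their direction on every slide. The exception was PLAU after PMA-Ionomycin at T24, with -0.07 to 2.84 within slides. The log2 FC of F3 after LPS at T24 was 2.38 to 8.83 within slides, and 5.71 with the slide as a block. For SERPINB2 the same comparison gave 3.13 to 4.89 within slides.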

How the data were processed

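RNA of PBMCs from 4 rabbits, in 6 groups of 4, was measured on 24 arrays. The authors deposited scanner files made with Agilent Feature Extraction 10.7.3.1, per the submitters' processing notes. Their median signal is a spot intensity as deposited, without background subtraction, which compresses changes of dim probes. A deposited log2 file holds the same signals centred on the mean of each array by the authors.

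Spots marked as outliers were left out, and the log2 median signal of 61657 non-control spots was centred on the array median and averaged per probe and per gene. Symbols came from accessions or gene numbers in the RefSeq annotation mOryCun1.1, used for names only, and from the study's immune gene list, and positions are those of the array files (oryCun2). The limma fit (lmFit and eBayes) had a mean for each of the 6 groups, as in the study's methods, and Benjamini-Hochberg adjustment over all genes. It was tested on simulated data. R 4.3.3, limma 3.58.1, data.table (1.17.8), Python 3.11.15, pandas 2.3.3, numpy 2.4.6, matplotlib 3.10.9 and scipy 1.17.1 were used.

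A rabbit number marks 1 animal in all groups. The residuals of arrays from 1 rabbit correlated with a median r of 0.228 (60 pairs), and those from different rabbits and groups with -0.0746 (180 pairs), so a paired fit with rabbit as a block was an alternative. P-values measure the spread between these 4 rabbits. Where a gene was not well above background on any array of the dimmer group, a bound is given against, on each array, the higher of the gene's own signal and the lowest signal well above background.

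The genes, lists and comparisons were chosen with earlier results of these data known. Pathway genes were named if called with 1 direction in 4 of 4 rabbits and well above background throughout the brighter group, at most 4 per list and comparison by size. A gene that this rule picked and a marker stay in the counts and are not reported here. ANXA2 after LPS, S100A10, PLAT, CPB2, F2 and CD36, and the markers CAMP and MPO, are exceptions chosen after their values were seen, as was the mean of the 3 downstream THBS1 probes. Other alternatives were 4 scalings (quantile, the processed signal at its 75th percentile, normexp with offset 50, and the deposited log2 file), dropping dim probes, slide as a block, fits to the arrays of 1 comparison, single probes, and leaving out each rabbit.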

Additional observations from a re-analysis of the deposited data

Results flagged for a closer look

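In PMA-Ionomycin-stimulated PBMCs at T4, the level of F3 in rabbit 5 was 4.19, against 6.90 to 7.07 in the other rabbits. Its gap to the nearest rabbit was 0.941 of the range of the group, above the critical value of Dixon's test for 4 samples. In the same group the level of THBS1 in rabbit 5 was 4.76, against 6.01 to 6.23, a gap of 0.850 of the range. Of 30 groups of levels searched, these 2 were marked, and chance marks about 1 in 20.

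The effect of LPS on SERPINB2 differed between T4 and T24 by 4.01 on the log2 scale in the test of the interaction, from a log2 FC of 0.11 to one of 4.12.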

How the results depend on the processing

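The 19 called results of the 5 genes kept their direction under 13 alternatives, except that the upstream THBS1 probe alone read 0.39 for PMA-Ionomycin against mock at T24. All 19 stayed called under quantile normalization, normexp, the deposited log2 file, without dim probes, with either block and without rabbit 5. The call was lost for 1 result with the processed signal (F3, PMA-Ionomycin at T4, adjusted p = 0.0562), 1 with only the arrays of the comparison (F3, LPS at T24, adjusted p = 0.0748), 2 with single probes (THBS1 at T24), 1 without rabbit 1 and 3 each without rabbits 2 and 4. With single probes a gene counted as called only if all of its probes were called in 1 direction. The 2 losses of THBS1 came through its upstream probe, which was not called. With the rabbit as a replicate block, LPS called 1 gene at T4, 4 genes at T24 and 3 in the interaction, PMA-Ionomycin called 1 in the interaction, and the block ended no call. With only the arrays of the comparison 1 gene was called for LPS at T24 (0.163% of all genes), and with normexp 1 for the PMA-Ionomycin interaction (22.04% of all genes). With single probes, SERPINB2 was the 1 gene with all of its probes called for PMA-Ionomycin against LPS at T24. Of all probes taken singly, 37.2% were called there. Leaving out each rabbit gave 1 to 3 genes for LPS at T24 (0.294 to 2.12% of all genes), 0 to 1 for the LPS interaction (0.0242 to 1.40%) and 0 to 2 for the PMA-Ionomycin interaction (15.7 to 22.5%). Signs turned in values that were not called. For TFPI after LPS at T4 the log2 FC was 0.10 with quantile normalization, 0.14 with the processed signal, 0.078 with normexp, 0.053 with the slide block and -0.17 to 0.16 without each rabbit in turn. For PLAU between the stimulations at T24 it was -0.30, -0.20, -0.32 and -0.022 under the 4 scalings and -0.057 to 0.27 without each rabbit. The upstream THBS1 probe alone gave 1.47 for the PMA-Ionomycin interaction. Leaving out each rabbit also gave -0.21 to 0.41 for SERPINB2 after LPS at T4, -0.0041 to 1.20 for the LPS interaction of PLAU and -0.26 to 1.69 for the PMA-Ionomycin interaction of F3. Of 56 called results of the other pathway genes none turned under the 4 scalings, and 5 to 10 lost the call. The processed signal moved the median log2 FC of all genes by -0.37 to 0.16. With 4 rabbits the SE of a log2 FC was 0.36 for TFPI and 0.89 for F3, which was not well above background on 2 of the 4 mock arrays at T24. Except as stated, the cause was not tested.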
